A study of Mus musculus with 21 samples.

Results

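The response of the mouse lung to an extract of the fungus Metarhizium anisopliae was compared between 3 h and 12 h after exposure. For each gene, the log2 difference between lungs given the extract (MACA, Metarhizium anisopliae crude antigen) and lungs given vehicle (HBSS, Hank's balanced salt solution) was taken at each time. The 3 h difference was then subtracted from the 12 h difference, which gives the change of the response between the times. These differences rest on 14 of the 21 arrays of the study. A gene was called past the threshold at a Benjamini-Hochberg adjusted p under 0.05 in limma, a linear model fitted across all 22626 probe sets that are not array controls (660 of which, 2.92%, passed for the change). An early-only gene passed at 3 h and not at 12 h, and its response also changed past the threshold in the opposite direction between the times. A late-only gene passed at 12 h and not at 3 h, with a change past the threshold in the direction of the 12 h difference. A sustained gene passed at both times in the same direction, and a reversed gene passed at both in opposite directions. Genes that passed at 1 time with no change past the threshold were left undecided, since a miss at the other time does not show a difference between times.

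The mice were female BALB/c, 8 weeks old, and each received a single aspiration into the trachea. MACA lungs got 20 µg of extract in 50 µl of HBSS, and HBSS lungs got the vehicle alone in the same volume. The groups were MACA at 3 h (n = 4) against HBSS at 3 h (n = 3), and MACA at 12 h (n = 3) against HBSS at 12 h (n = 4). Bovine serum albumin (BSA) at the MACA dose, at 3 h (n = 3) and 12 h (n = 4), entered the fit for the estimate of the spread and is given beside the results where its level bears on them. Every group went through the aspiration, so the vehicle lungs are not untreated lungs. RNA came from whole homogenised lungs of the left side, and in such bulk samples fewer cells of a type and less RNA per cell cannot be told apart. Each array is labelled as its own biological replicate, and with 3 or 4 arrays a group their number sets the precision of the values below.

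An inhaled microbial extract is sensed by pattern recognition receptors on epithelial cells and macrophages, which act through NF-kB, AP-1 and interferon regulatory factors. Immediate early genes are transcribed from factors already in the cell and are usually switched off again quickly, while chemokine genes that recruit neutrophils and monocytes can stay on for longer. Genes of antigen presentation, of alternative macrophage activation and of DNA replication need new protein synthesis, newly arrived cells or entry into the cell cycle, and are known as later responses. Vehicle lungs can change between the times as well, so a response over vehicle can change without any change in the treated lungs.

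The deposited intensities had a median of 93 to 287 over the 14 arrays and were brought to one scale by quantile normalisation. Levels are given as log2(intensity + 16), and values under 5.83 (an intensity of 40.9) lie within the noise of the arrays. The surfactant gene Sftpc, which defines alveolar type 2 cells, was far above the noise on every array, and of 16 alveolar epithelial markers 0 were within the noise on all arrays. A pair of features in the values set some arrays apart. First, a spiked hybridisation control had a ratio of 0.939 to 1.22 in 8 arrays and of 1.62 to 1.91 in 13. The low ratio was seen in every HBSS array at 12 h (4 of 4), in replicates 3 and 4 of MACA at 3 h and in replicates 3 and 4 of BSA at 12 h. Every HBSS array at 3 h had the high ratio, so the move of HBSS lungs between the times coincides with a change of ratio. The control ratio thus cannot be told apart from the 12 h comparison or from this move except through a term in the fit. That term rests on MACA at 3 h and BSA at 12 h, the groups that hold both ratios. Second, HBSS 12 h replicates 1 and 2 stood apart from replicates 3 and 4 in a set of genes, and BSA 12 h replicates 1 and 2 stood apart from their replicates 3 and 4 in the same direction. In BSA at 12 h the control ratio falls on the same replicates as this split, so for such genes the term cannot separate the ratio from the split. Genes with this split made up 14.3% of all genes and 39.2% of the 51 early-only genes with higher levels in MACA (18 higher and 2 lower in replicates 1 and 2 than in 3 and 4). For most genes shown in full, the text says where leaving out these replicates, or adding the control ratio as a term to the fit, ended a call.

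At 3 h, 565 genes were higher in MACA than in HBSS lungs (4.56% of 12393 genes) and 336 were lower (2.71%), 7.27% together. At 12 h, 1212 were higher (9.78%) and 1181 lower (9.53%), 19.3% together. These shares are the background for the counts of list members given below. The change between the times passed for 403 genes (3.25%), 212 above 0 (1.71%) and 191 below 0 (1.54%). The sorting gave 79 early-only genes (51 higher in MACA, 0.412% of all genes, and 28 lower, 0.226%). There were 372 sustained genes (279 higher, 2.25%, and 93 lower, 0.75%) and 271 late-only genes (166 higher, 1.34%, and 105 lower, 0.847%). Another 17 genes reversed (0.137%), 433 passed only at 3 h and 1733 only at 12 h with no settled change, 25 changed between the times without passing at either, and 9463 passed nowhere (76.4%). The 279 shared higher genes were 49.4% of those higher at 3 h and 23% of those higher at 12 h. The 93 shared lower genes were 27.7% of those lower at 3 h and 7.87% of those lower at 12 h. Across the 12393 genes, which are not independent replicates, the 3 h and 12 h differences correlated with a Pearson coefficient of 0.43 and a Spearman coefficient of 0.32. The 2 differences share no array.

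**Figure D1:**
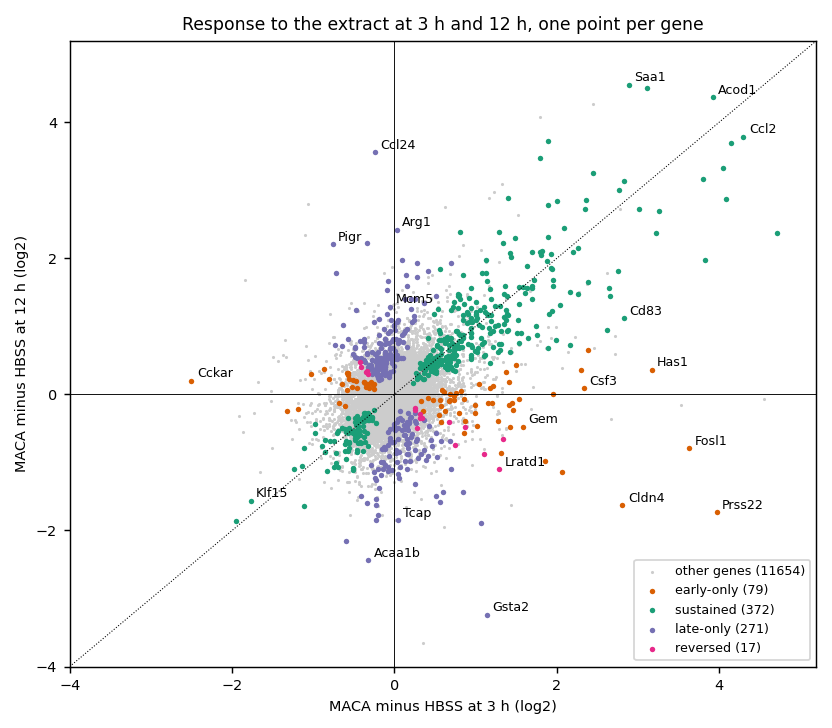
Each point is a gene, with its MACA minus HBSS log2 difference at 3 h on the x axis and at 12 h on the y axis, coloured by class with the number of genes in brackets. The 79 early-only genes lie along the x axis, the 271 late-only genes along the y axis and the 372 sustained genes near the diagonal.

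The median early-only higher gene stood 1.04 above HBSS at 3 h and -0.10 from it at 12 h (log2), and the median late-only higher gene -0.12 and 0.58. The median sustained higher gene stood at 0.94 and 0.89. Over all genes the medians were -0.02 and 0. Leaving out 1 of the 14 arrays at a time gave 125 (without MACA 12 h replicate 2) to 493 (without MACA 3 h replicate 2) changed genes, with 94 of the 403 past the threshold in all 14 such fits. The count moved by more than 1.5 times without MACA 3 h replicate 4 (213), HBSS 3 h replicate 1 (161), HBSS 3 h replicate 3 (138), MACA 12 h replicate 2 (125) or HBSS 12 h replicate 2 (194). With the control ratio set as a term, 215 genes passed, 55 of them among the 403, and with the 3 h arrays of the high set alone, 43 passed, 41 of them among the 403. Without replicates 1 and 2 of HBSS and BSA at 12 h, 118 passed, 97 of them among the 403. Whether the arrays' control ratio or the split at 12 h has a part in the remaining calls was not tested. The even split of 212 above 0 and 191 below 0 rests on the scaling. Without scaling the median change of all genes was -0.66, and 19 genes passed above and 2108 below 0, while a scaling to one median put 63.5% above 0 against 52.6%. Sustained genes numbered 228 with the control ratio as a term, 180 of them shared with the 372, and 393 without the 12 h replicates 1 and 2, 277 of them shared.

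**Figure D2:**
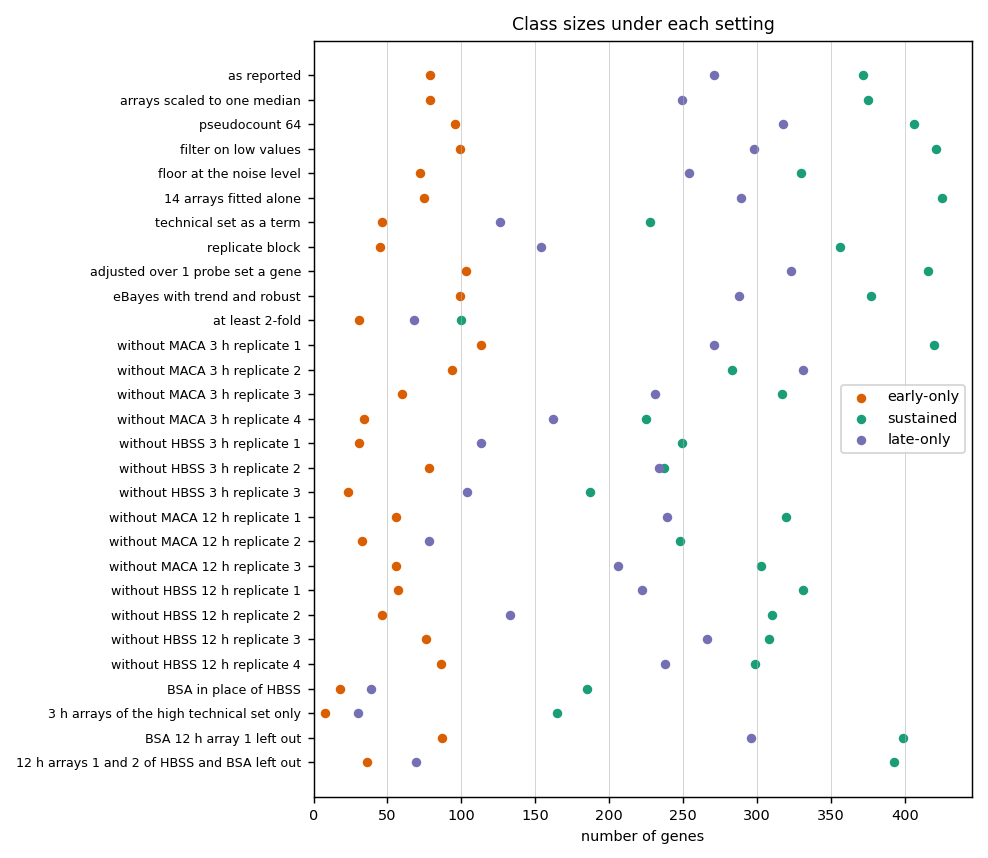
The number of genes (x axis) in each class under each setting of the processing (y axis), with the setting as reported at the top and unscaled values left out because their late-only count of 1868 lies off the axis. Sustained counts run from 100 to 425, and late-only counts from 30 to 331.

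The 51 early-only genes with higher levels in MACA held 4 of the immediate early transcription factors. Of 24 immediate early factors measured, 15 were higher and 2 lower at 3 h, against 4.56% and 2.71% of all genes, and 5 were higher and 3 lower at 12 h, against 9.78% and 9.53%. The list's median was 1.07 at 3 h and 0.19 at 12 h (log2). Fosb, Fosl1, Egr1 and Atf3 were early-only, and Junb, Egr2, Ier5, Maff and Zfp36 were sustained and higher.

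Has1, which encodes a hyaluronan synthase, had log2 levels of 8.20, 9.29, 8.05 and 9.30 in MACA lungs at 3 h, against 4.81, 5.62 and 6.19 in HBSS lungs. At 12 h it had 5.63, 6.15 and 6.14 in MACA lungs, against 5.10, 5.60, 5.99 and 5.76 in HBSS lungs. The 3 h groups lay far apart and the 12 h groups overlapped, with most HBSS values within the noise. The difference was 3.17 ± 0.38 (SE, limma adjusted p = 0.000146) at 3 h and 0.36 ± 0.38 (adjusted p = 0.585) at 12 h, and the response changed by -2.81 ± 0.54 (adjusted p = 0.0161). Has1 stayed early-only in all 14 fits that left out 1 array and without the 12 h replicates 1 and 2 (-3.07, adjusted p = 0.048). With the control ratio as a term the change was -2.97 (adjusted p = 0.0583), and over BSA in place of HBSS it was -1.26 (adjusted p = 0.244). BSA lungs at 3 h had 7.33, 7.19 and 6.11, between the MACA and HBSS values except for replicate 3, which lay inside the HBSS range. The 250 bases before the start of Has1 are shown because they hold a full cyclic AMP response element, the palindrome TGACGTCA, at 83 bases before the start (capitals). They lie on the minus strand at chr17:17855189-17855438 of GRCm38.p6 and are taken from RefSeq, 5′ to 3′.
Has1: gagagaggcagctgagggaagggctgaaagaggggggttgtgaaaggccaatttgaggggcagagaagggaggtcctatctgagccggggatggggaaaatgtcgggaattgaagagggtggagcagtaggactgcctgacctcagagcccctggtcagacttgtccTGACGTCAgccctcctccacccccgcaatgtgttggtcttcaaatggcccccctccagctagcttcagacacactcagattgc
Over the 300-base promoter windows of early-only higher genes, of which 33 of 51 matched the RefSeq promoter table, 3 of 40 windows (7.5%) held this element on either strand, against 2.51% of the 12566 windows of all genes tested. A match describes the letters only.

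Gem, a small GTP-binding protein that inhibits voltage-gated calcium channels, had levels of 8.72, 9.16, 8.61 and 9.11 in MACA lungs at 3 h, against 7.13, 7.54 and 7.30 in HBSS lungs. By 12 h the levels were 7.98, 7.60 and 7.79 in MACA lungs, against 8.26, 8.42, 8.27 and 8.13 in HBSS lungs. MACA lungs were above HBSS lungs on every array at 3 h and below them on every array at 12 h. The differences were 1.58 ± 0.18 (SE, limma adjusted p = 0.000129) and -0.48 ± 0.18 (adjusted p = 0.0849), and the change was -2.06 ± 0.26 (adjusted p = 0.00232). It passed in all 14 fits without 1 array, with the control ratio as a term (-2.47, adjusted p = 0.00607) and without the 12 h replicates 1 and 2 (-1.99, adjusted p = 0.011). With the term the 12 h difference passed as well, which makes Gem a reversed gene in that fit. Gem moved between the times in both arms, falling by 1.11 in MACA lungs (adjusted p = 0.00136) and rising by 0.95 in HBSS lungs (adjusted p = 0.0064). BSA lungs had 7.48, 7.81, 7.48 and 6.89 at 12 h, all below the HBSS lungs, and over BSA in place of HBSS the change was -0.99 and did not pass (adjusted p = 0.09). Rcan1, an inhibitor of calcineurin chosen after its values were seen, had a change of -1.69 (adjusted p = 0.00151), with differences of 1.46 at 3 h and -0.23 at 12 h.

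Egr1, a zinc finger factor of the immediate early response, had 11.97, 12.03, 11.69 and 12.49 in MACA lungs at 3 h, against 9.66, 10.03 and 9.29 in HBSS lungs. The 12 h levels were 11.42, 11.50 and 11.23 in MACA lungs, against 10.20, 10.31, 11.62 and 10.76 in HBSS lungs. The 3 h groups did not overlap, and at 12 h HBSS replicate 3 lay above all MACA lungs. The differences were 2.39 ± 0.31 (SE, limma adjusted p = 0.000271) and 0.66 (adjusted p = 0.16), and the change was -1.72 ± 0.44 (adjusted p = 0.0434). Atf3, a stress-induced leucine zipper factor, had 9.14, 9.92, 9.52 and 10.17 in MACA lungs at 3 h, against 7.41, 7.51 and 7.26 in HBSS lungs. Its groups did not overlap at 12 h either, with 7.88, 7.83 and 8.07 in MACA lungs against 7.80, 7.80, 7.41 and 7.26 in HBSS lungs, but the difference of 0.36 did not pass (limma adjusted p = 0.501). Atf3 changed by -1.94 ± 0.45 (adjusted p = 0.0295). Egr1 kept its class in 3 of the 14 fits that left out 1 array and Atf3 in 7, and the highest adjusted p of the change was 0.113 for Egr1 (without HBSS 3 h replicate 3) and 0.078 for Atf3 (without MACA 12 h replicate 2). After the control ratio was added as a term, Atf3 remained early-only and Egr1 was undecided, while without the 12 h replicates 1 and 2 Egr1 remained early-only and Atf3 was undecided (adjusted p = 0.0676).

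Csf3, the growth factor of granulocytes, had 6.54, 6.81, 6.52 and 7.70 in MACA lungs at 3 h, against 4.87, 4.79 and 4.00 in HBSS lungs, where every array was within the noise. It was at least 2.09-fold higher in MACA at 3 h (limma adjusted p = 0.00153), and every array of both groups was within the noise at 12 h. Its change passed (adjusted p = 0.0321) in the full fit and in 7 of the 14 fits without 1 array, with a highest adjusted p of 0.0908 without HBSS 3 h replicate 3, and not without the 12 h replicates 1 and 2 (adjusted p = 0.105) or with the control ratio as a term. Cish, a feedback inhibitor of STAT5, had differences of 1.50 at 3 h (adjusted p = 0.000104) and 0.43 at 12 h (adjusted p = 0.0941), and a change of -1.07 (adjusted p = 0.0252). Cish was sustained with the control ratio as a term, with 0.75 at 12 h (adjusted p = 0.0246) and a change of -0.60 (adjusted p = 0.294), and without the 12 h replicates 1 and 2 it was undecided (adjusted p = 0.0828). Cish was the early-only gene among 21 STAT and SOCS genes, of which 7 were higher at 3 h, 10 higher and 1 lower at 12 h, and 6 sustained. Cd40, a co-stimulatory receptor of antigen-presenting cells, changed by -1.08, kept its class in 3 of the 14 fits and lost it both with the control ratio as a term and without the 12 h replicates 1 and 2 (adjusted p = 0.149).

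Several early-only genes had levels in BSA lungs at 3 h like those in MACA lungs. Hspb1, a small heat shock protein, had 13.06, 12.94, 12.94 and 13.08 in MACA lungs at 3 h, 12.92, 13.08 and 13.08 in BSA lungs, and 12.00, 12.08 and 12.47 in HBSS lungs. Chac1, an enzyme that breaks down glutathione and belongs to the Atf4 pathway, had 8.57, 8.19, 9.15 and 9.11 in MACA lungs at 3 h, 9.13, 9.24 and 9.07 in BSA lungs, and 7.34, 7.39 and 7.20 in HBSS lungs. The HBSS lungs lay below both other groups for each gene. The response changed by -0.78 for Hspb1 and by -1.58 for Chac1, and neither kept its class with the control ratio as a term (limma adjusted p = 0.053 and 0.13) or without the 12 h replicates 1 and 2 (adjusted p = 0.0766 and 0.085). Hspb1 kept it in 8 and Chac1 in 4 of the 14 fits without 1 array.

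Prss22, an epithelial serine protease, had 9.56, 9.58, 8.88 and 9.15 in MACA lungs at 3 h, 9.31, 9.59 and 8.89 in BSA lungs, and 5.38, 5.68 and 4.91 in HBSS lungs. At the later time the levels were 4.66, 5.02 and 4.74 in MACA lungs, 8.21, 8.31, 5.59 and 5.20 in BSA lungs, and 8.04, 7.64, 5.08 and 5.39 in HBSS lungs. All MACA lungs at 12 h were within the noise, and the HBSS and BSA lungs at 12 h fell into 2 levels, high in replicates 1 and 2 and within the noise in replicates 3 and 4. Prss22 was at least 11.0-fold higher in MACA than in HBSS lungs at 3 h (limma adjusted p = 0.00549), and the change of the response with values set to no less than the noise level was -4.47 (adjusted p = 0.0191). Without the 12 h replicates 1 and 2 the fitted change was -4.4 (adjusted p = 0.000161), and it passed in all 14 fits without 1 array. With the control ratio as a term the 12 h difference passed as well, so that Prss22, and likewise Cldn4 and Nupr1, counted as reversed. In BSA lungs at 12 h the control ratio and the split fall on the same replicates, so the term cannot separate them for these genes.

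Fosl1, the AP-1 subunit Fra-1, had 7.63, 7.54, 7.63 and 7.99 in MACA lungs at 3 h, 7.57, 8.11 and 7.93 in BSA lungs, and 4.22, 4.00 and 4.00 in HBSS lungs. After 12 h it had 4.30, 4.67 and 4.44 in MACA lungs, 6.77, 6.83, 4.00 and 4.95 in BSA lungs, and 6.31, 6.34, 4.00 and 4.38 in HBSS lungs. The 12 h split between replicates was the same as for Prss22. Fosl1 was at least 3.65-fold higher in MACA at 3 h (limma adjusted p = 0.00275), and with values set to no less than the noise level the change was -2.12 (adjusted p = 0.00715). The fitted change passed in all 14 fits without 1 array, with the control ratio as a term (adjusted p = 0.0243) and without the 12 h replicates 1 and 2 (adjusted p = 0.000786).

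The same pattern of values held for Cldn4, a claudin of tight junctions, Nupr1, a stress-induced nuclear protein, and Srxn1, the sulfiredoxin that repairs oxidised peroxiredoxins. Nupr1 had 12.94, 12.94, 12.96 and 13.06 in MACA lungs at 3 h, 13.16, 13.27 and 13.33 in BSA lungs, and 10.93, 10.81 and 10.98 in HBSS lungs. At 12 h it had 11.03, 11.33 and 11.28 in MACA lungs, 13.34, 13.31, 11.32 and 11.36 in BSA lungs, and 13.02, 13.12, 11.32 and 11.95 in HBSS lungs. HBSS replicates 1 and 2 at 12 h thus stood at the level of MACA lungs at 3 h, and replicate 3 within the range of MACA lungs at 12 h. Between HBSS 12 h replicates 1 and 2 and replicates 3 and 4 the mean difference was 2.60 for Prss22, 2.14 for Fosl1, 2.12 for Cldn4, 1.57 for Srxn1 and 1.43 for Nupr1. The change of the response was -4.44 ± 0.91 for Cldn4 (limma adjusted p = 0.0199), -3.21 ± 0.67 for Nupr1 (adjusted p = 0.0215) and -2.84 ± 0.70 for Srxn1 (adjusted p = 0.0394). Without the 12 h replicates 1 and 2 it was -3.38, -2.49 and -2.06, past the threshold for each (adjusted p = 0.00637, 0.000159 and 0.011). Cldn4 lost its class without HBSS 3 h replicate 2 or 3 (highest adjusted p = 0.0501), Nupr1 kept it in 9 of 14 such fits and Srxn1 in 3 of 14, with a highest adjusted p of 0.052 and 0.0928.

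Gjb2, the gap junction protein connexin 26, was high in BSA lungs at 3 h without a split at 12 h. It had 7.86, 7.75, 8.20 and 8.42 in MACA lungs at 3 h, 8.21, 8.28 and 8.34 in BSA lungs, and 6.15, 6.75 and 6.66 in HBSS lungs. By 12 h the levels were 6.70, 6.94 and 7.14 in MACA lungs and 6.80, 7.33, 6.67 and 7.11 in HBSS lungs, and these overlapped. The change was -1.59 (limma adjusted p = 0.00858), and the class held in all 14 fits without 1 array but not with the control ratio as a term. Set against BSA in place of HBSS, the change of Gjb2 was 0.16. Of the 51 early-only higher genes, 13 also passed for BSA against HBSS at 3 h and 3 at 12 h, against 0.169% and 1.17% of all genes. Their median BSA minus HBSS difference was 0.53 at 3 h and 0.03 at 12 h. The MACA and BSA differences share the HBSS arrays, so these values are given side by side.

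**Figure D3:**
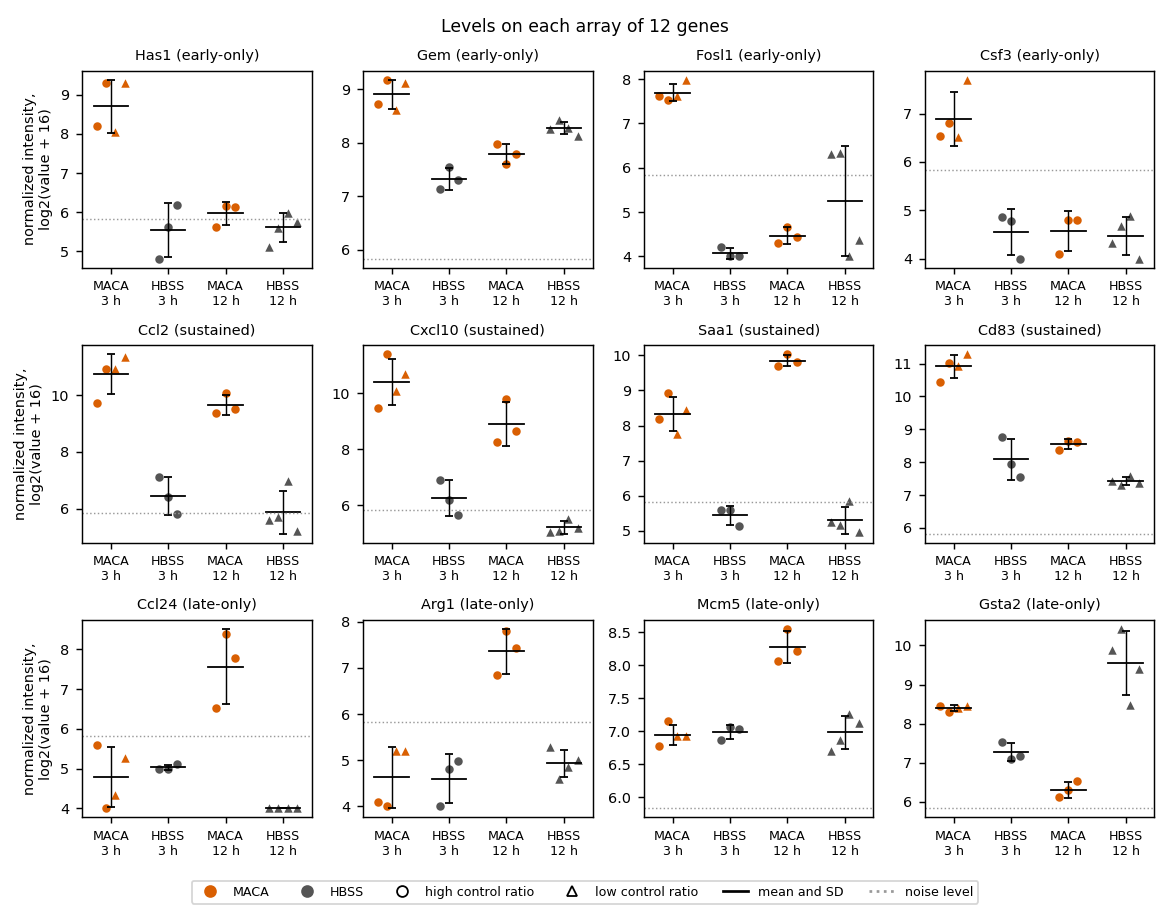
Log2(intensity + 16) on every MACA (orange) and HBSS (grey) array at 3 h and 12 h for 12 genes, with bars for the mean and SD, circles and triangles for arrays of the high and low control ratio, and a dotted line at the noise level of 5.83. Has1, Gem, Fosl1 and Csf3 are high in MACA at 3 h alone, Ccl2, Cxcl10 and Saa1 at both times, and Ccl24, Arg1 and Mcm5 at 12 h alone.

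Early-only genes with lower levels in MACA were fewer. HBSS lungs moved further than MACA lungs between the times in 11 of these 28 genes, against 49.2% of all genes. The median moves were 0.37 in MACA and -0.22 in HBSS lungs. Cckar, the cholecystokinin A receptor, had 7.37, 7.81, 6.45 and 6.73 in MACA lungs at 3 h, 7.35, 7.51 and 6.92 in BSA lungs, and 9.60, 9.38 and 9.79 in HBSS lungs. The 12 h levels were 9.98, 9.76 and 9.75 in MACA lungs, 7.88, 8.06, 9.87 and 9.53 in BSA lungs, and 8.85, 9.40, 9.94 and 10.36 in HBSS lungs. It was thus low after MACA and after BSA at 3 h. At 12 h the MACA and HBSS lungs overlapped, and BSA replicates 1 and 2 remained low. HBSS replicates 1 and 2 at 12 h (8.85 and 9.40) were also below replicates 3 and 4, and below all MACA lungs. Cckar thus shows the 12 h split in both vehicle and BSA lungs. The differences were -2.50 ± 0.46 (SE, limma adjusted p = 0.0042) and 0.20 (adjusted p = 0.846), and the change of 2.69 ± 0.64 (adjusted p = 0.0337) kept its class in 5 of 14 fits without 1 array, with a highest adjusted p of 0.0844 without HBSS 3 h replicate 3, and was undecided with the control ratio as a term (adjusted p = 0.0711). Wee1, the kinase that restrains entry into mitosis, had 8.71, 8.01, 7.54 and 8.01 in MACA lungs at 3 h, against 8.99, 9.42 and 8.89 in HBSS lungs. At the later time the levels were 7.85, 7.99 and 7.90 in MACA lungs, against 7.50, 7.63, 7.67 and 7.66 in HBSS lungs. Between the times Wee1 moved by -0.16 in MACA lungs and fell by 1.48 in HBSS lungs (limma adjusted p = 0.00153), and its response changed by 1.33. In HBSS lungs the control ratio changed along with the time, and its part in this fall was not tested. Usp2, a deubiquitinase with a daily rhythm, fell by 1.27 in HBSS lungs (limma adjusted p = 0.000435), and its response changed by 0.98. Wee1 kept its class in 4 and Usp2 in 8 of the 14 fits, and neither change passed with the control ratio as a term (0.61 and 0.67) or without the 12 h replicates 1 and 2 (adjusted p = 0.115 and 0.117). Eln, which encodes elastin and was early-only higher, shows the opposite course, with a move of -0.08 in MACA lungs and a rise of 1.18 in HBSS lungs (limma adjusted p = 0.00112). Its response changed by -1.26 and held in all 14 fits without 1 array, but not without the 12 h replicates 1 and 2 (adjusted p = 0.0586) or with the control ratio as a term.

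Among the sustained genes were 11 of 16 NF-kB subunits and feedback genes, 8 of 18 CC chemokines, 8 of 24 cytokines, 8 of 9 interferon-induced GTPases and 6 of 24 acute phase genes, against 3% of all genes. Together these lists hold a minor share of the 372. Ccl2, which attracts monocytes, had 9.73, 10.93, 10.95 and 11.37 in MACA lungs at 3 h, against 7.13, 6.42 and 5.79 in HBSS lungs. After 12 h it had 9.37, 10.07 and 9.53 in MACA lungs, against 5.61, 5.69, 6.96 and 5.22 in HBSS lungs. The groups were far apart at both times, with differences of 4.30 ± 0.50 (SE, limma adjusted p = 0.000134) and 3.79 ± 0.50 (adjusted p = 0.000204). The change of -0.52 ± 0.71 did not pass (adjusted p = 0.768). Of 18 CC chemokines, 9 were higher at 3 h and 13 at 12 h, 8 of them sustained.

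Cxcl1, a neutrophil attractant, had 11.65, 12.00, 11.97 and 12.40 in MACA lungs at 3 h, against 8.88, 8.59 and 6.40 in HBSS lungs. At 12 h it had 9.98, 10.72 and 10.70 in MACA lungs, against 6.42, 7.09, 8.68 and 6.35 in HBSS lungs. MACA lungs were higher on every array at both times, although the HBSS lungs ranged widely. The differences were 4.05 ± 0.72 (SE, limma adjusted p = 0.00334) and 3.33 (adjusted p = 0.00489), with a change of -0.72 ± 1.01 (adjusted p = 0.774). Cxcl2, a related neutrophil attractant, had differences of 4.09 ± 0.75 (limma adjusted p = 0.00423) and 2.87 (adjusted p = 0.0153), and a change of -1.22 (adjusted p = 0.595). The 12 h difference with the control ratio as a term did not pass for Cxcl1 (adjusted p = 0.0775) or Cxcl2 (adjusted p = 0.141), so that both were undecided there, as was the CC chemokine Ccl3 (adjusted p = 0.149). BSA 12 h replicate 1, which enters the term, stood high, with 9.44 for Cxcl1, 9.21 for Cxcl2 and 8.00 for Ccl3. The other BSA lungs at 12 h had 6.11 to 7.01, 5.36 to 6.26 and 4.00 to 4.85. The part of this array in the lost calls was not tested. Of 7 CXC chemokines that attract neutrophils, 3 were higher at 3 h and 4 at 12 h, and Cxcl1, Cxcl2 and Cxcl5 were sustained.

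Cxcl10, an interferon-induced attractant of T cells, had 9.47, 11.39, 10.08 and 10.70 in MACA lungs at 3 h, against 6.91, 6.20 and 5.66 in HBSS lungs. By 12 h the levels were 8.27, 9.79 and 8.64 in MACA lungs, against 5.03, 5.08, 5.52 and 5.19 in HBSS lungs, where every array was within the noise. The difference at 3 h was 4.15 ± 0.43 (SE, limma adjusted p = 4.66e-05), and at 12 h Cxcl10 was at least 8.39-fold higher (adjusted p = 8.41e-05). The promoters of these 3 chemokines are shown because each holds an NF-kB site, in capitals, within the 250 bases before its start. That of Cxcl1 lies at chr5:90890995-90891244 (plus strand), that of Cxcl2 at chr5:90903649-90903898 (plus strand) and that of Cxcl10 at chr5:92348890-92349139 (minus strand), from RefSeq in GRCm38.p6, 5′ to 3′. In Cxcl10 the capitals mark, in order, an interferon-stimulated response element (GAAANNGAAA) and 2 NF-kB stretches.
Cxcl1: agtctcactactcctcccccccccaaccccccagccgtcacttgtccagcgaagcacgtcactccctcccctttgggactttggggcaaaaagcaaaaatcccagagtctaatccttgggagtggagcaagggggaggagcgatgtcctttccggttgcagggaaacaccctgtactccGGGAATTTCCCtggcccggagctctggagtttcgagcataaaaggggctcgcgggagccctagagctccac
Cxcl2: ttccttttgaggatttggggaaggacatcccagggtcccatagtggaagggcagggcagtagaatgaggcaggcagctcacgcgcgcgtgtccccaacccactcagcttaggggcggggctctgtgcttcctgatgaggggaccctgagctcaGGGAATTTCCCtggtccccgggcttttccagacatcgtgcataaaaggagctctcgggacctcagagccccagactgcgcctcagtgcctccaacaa
Cxcl10: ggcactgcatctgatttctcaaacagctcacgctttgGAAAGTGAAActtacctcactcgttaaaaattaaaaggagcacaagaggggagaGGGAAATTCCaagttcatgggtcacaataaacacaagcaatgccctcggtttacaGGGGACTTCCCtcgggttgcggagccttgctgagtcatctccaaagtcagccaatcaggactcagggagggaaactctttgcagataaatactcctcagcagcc
In Cxcl1 and Cxcl2 the capitals cover overlapping matches that start 71 and 97 bases before the gene's start. Of 278 windows of the sustained higher genes (220 of 279 genes matched), 58 held an NF-kB match on either strand, which is 20.9% against 10.2% of the windows of all genes tested. The interferon-stimulated response element stood in 6.47% of these windows, against 3.14%.

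Among 24 cytokine genes 9 were higher at 3 h, and at 12 h 9 were higher and 1 lower. Il6, Il1a, Il1b, Il1rn, Tnf, Csf1, Csf2 and Lif were sustained. Il1rn, the interleukin-1 receptor antagonist, had differences of 2.77 at 3 h and 3.01 at 12 h, but with the control ratio as a term its 12 h difference did not pass (limma adjusted p = 0.0518). BSA 12 h replicate 1 had 8.96 for Il1rn, against 6.24 to 6.72 in the other BSA lungs at 12 h. Of 16 NF-kB genes, 15 were higher at 3 h and 11 at 12 h, and the 11 were sustained. Saa1, a serum amyloid of the acute phase, had 8.19, 8.92, 7.75 and 8.45 in MACA lungs at 3 h, against 5.59, 5.60 and 5.14 in HBSS lungs. The 12 h levels were 9.71, 10.03 and 9.81 in MACA lungs, against 5.25, 5.16, 5.85 and 4.96 in HBSS lungs. It was at least 5.64-fold higher at 3 h (limma adjusted p = 0.00261) and 4.55 ± 0.49 higher on the log2 scale at 12 h (adjusted p = 5.21e-05), and the change of 1.66 ± 0.70 did not pass (adjusted p = 0.21). Saa1 was higher in every MACA lung at 12 h than in any at 3 h. Of 24 acute phase and antimicrobial genes, 7 were higher at 3 h and 15 at 12 h, 6 of them sustained. Acod1, which makes itaconate in macrophages, was at least 6.12-fold higher at 3 h (adjusted p = 0.00647) and at least 7.14-fold higher at 12 h (adjusted p = 0.00135), with HBSS lungs within the noise.

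Neutrophil markers were higher in MACA lungs at both times, as the sustained genes were. Of 13 neutrophil markers, 7 were higher at 3 h and 7 at 12 h, 4 were sustained and 0 changed between the times. Their summed intensity was 13869 to 20864 in MACA lungs at 3 h against 2757 to 8297 in HBSS lungs, and 13406 to 18956 in MACA lungs at 12 h against 3634 to 7332 in HBSS lungs. The sums did not overlap at either time, but bright members weigh most in them. Lcn2, the brightest of the 13, had log2 levels of 12.43 to 12.91 in MACA lungs at 3 h, against 10.57 to 12.07 in HBSS lungs. At 12 h it had 13.02 to 13.26, against 10.72 to 12.15. Lcn2 passed at 12 h alone with no settled change, and a sum without it was not taken. Of 16 macrophage markers 2 were higher at 3 h and 5 at 12 h, 1 of them sustained, and the list's median was 0.03 and 0.41 (log2). The sums were 20991 to 23951 in MACA lungs at 3 h against 16053 to 20056 in HBSS lungs, and 19560 to 21684 in MACA lungs at 12 h against 17147 to 19380 in HBSS lungs. Bright members weigh most here too. Cd14, 1 of the 16, had log2 levels of 12.17 to 12.69 in MACA lungs at 3 h, against 9.15 to 11.27 in HBSS lungs, and a sum without it was not taken. Of 12 B cell markers, 1 was higher at 3 h and 6 at 12 h, against 4.56% and 9.78% of all genes. Of 17 T cell and NK cell markers 0 passed at 3 h, and 1 was higher and 1 lower at 12 h, which is near the background. Of 17 endothelial markers 0 passed at 3 h and 1 was lower at 12 h, which is also near the background. The part of cell numbers in the responses was not tested.

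Of the 372 sustained genes, 11 also had a change past the threshold. Cd83, a surface protein of mature dendritic cells, shrank most clearly. It had 10.44, 11.02, 10.93 and 11.28 in MACA lungs at 3 h, against 8.76, 7.95 and 7.55 in HBSS lungs. At the later time the levels were 8.37, 8.65 and 8.62 in MACA lungs, against 7.44, 7.32, 7.58 and 7.38 in HBSS lungs. The groups stayed apart at both times, with differences of 2.83 ± 0.22 (SE, limma adjusted p = 7.86e-06) and 1.12 (adjusted p = 0.00308) and a change of -1.71 ± 0.32 (adjusted p = 0.0135). The change passed in all 14 fits without 1 array, and not with the control ratio as a term (-1.43, adjusted p = 0.0953) or without the 12 h replicates 1 and 2 (-1.76, adjusted p = 0.0586). The NF-kB inhibitor Tnfaip3 (A20), together with Nfkbiz, made up the members of the NF-kB list whose response changed. Tnfaip3 had differences of 2.62 (limma adjusted p = 2.45e-05) and 0.95 (adjusted p = 0.0139) and a change of -1.67 ± 0.34 (adjusted p = 0.0199). Nfkbiz had 1.89 (adjusted p = 2.45e-05) and 0.69 (adjusted p = 0.0144) and a change of -1.19 (adjusted p = 0.0226). Neither change passed with the control ratio as a term (-1.16 with adjusted p = 0.18 for Tnfaip3, and -1.16 with adjusted p = 0.1 for Nfkbiz). Without the 12 h replicates 1 and 2 Tnfaip3 was undecided (adjusted p = 0.078) and Nfkbiz early-only.

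Zbp1, a sensor of Z-form nucleic acids induced by interferon, grew. It had 6.76, 6.86, 6.34 and 6.55 in MACA lungs at 3 h, against 5.72, 5.82 and 5.90 in HBSS lungs, and 8.21, 8.88 and 8.39 in MACA lungs at 12 h, against 6.0, 6.25, 6.22 and 5.92 in HBSS lungs. The differences of 0.81 (limma adjusted p = 0.0455) and 2.39 ± 0.23 (adjusted p = 2.48e-05) gave a change of 1.58 ± 0.32 (adjusted p = 0.0197). Its 3 h call was close to the threshold, and Zbp1 was sustained in 3 of the 14 fits without 1 array, with its change at an adjusted p of 0.0592 at most (without MACA 12 h replicate 2). It was sustained with the control ratio as a term, where its change did not pass (0.96, adjusted p = 0.211). Dok2, an adaptor protein of blood cells chosen after its values were seen, had differences of 0.56 and 1.84 and a change of 1.28 (limma adjusted p = 0.00718).

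The sustained lower genes were smaller in effect, with a median of -0.48 at 3 h and -0.55 at 12 h. Klf15, a glucocorticoid-induced factor of metabolism, had 9.54, 8.22, 8.83 and 8.13 in MACA lungs at 3 h, against 10.51, 10.53 and 10.32 in HBSS lungs. After 12 h it had 7.38, 7.07 and 7.76 in MACA lungs, against 9.21, 9.31, 8.55 and 8.78 in HBSS lungs. MACA lungs were below HBSS lungs on every array at both times, by -1.77 ± 0.29 (SE, limma adjusted p = 0.00178) and -1.56 (adjusted p = 0.00195). Klf15 also fell between the times by 1.27 in MACA lungs (adjusted p = 0.0112) and by 1.49 in HBSS lungs (adjusted p = 0.0067). The change of the response, 0.22, did not pass (adjusted p = 0.843), which does not show that the response was equal at both times. Of 19 glucocorticoid-responsive genes, 2 were higher and 1 lower at 3 h, and 3 higher and 8 lower at 12 h. Of 17 circadian clock genes, 3 were higher and 1 lower at 3 h, and 1 higher and 5 lower at 12 h. Over all genes the shares were 4.56% higher and 2.71% lower at 3 h, and 9.78% higher and 9.53% lower at 12 h, so the single lower clock gene at 3 h is near the background. Snai2, a zinc finger repressor of mesenchymal cells, had differences of -1.11 and -1.64, and did not pass at 3 h with the control ratio as a term (limma adjusted p = 0.1).

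The late-only genes with higher levels in MACA held genes of alternative activation, DNA replication, antigen presentation and antiviral defence. Ccl24 (eotaxin-2), which attracts eosinophils, had 5.60, 4.00, 4.33 and 5.26 in MACA lungs at 3 h and 5.0, 5.0 and 5.11 in HBSS lungs, all within the noise. At 12 h it had 6.53, 8.38 and 7.78 in MACA lungs, against 4.00 on all 4 HBSS arrays. It was at least 3.33-fold higher in MACA at 12 h (limma adjusted p = 0.000244), and with values set to no less than the noise level the change was 1.73 (adjusted p = 0.022). Ccl24 stayed late-only in all 14 fits without 1 array and without the 12 h replicates 1 and 2 (adjusted p = 0.048), and was undecided with the control ratio as a term (adjusted p = 0.0784).

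Arg1, the arginase of alternatively activated macrophages, had 4.10, 4.00, 5.20 and 5.21 in MACA lungs at 3 h and 4.00, 4.82 and 4.98 in HBSS lungs. By 12 h the levels were 6.84, 7.80 and 7.43 in MACA lungs, against 5.29, 4.59, 4.85 and 5.01 in HBSS lungs. Only the MACA lungs at 12 h were above the noise, among these 14 arrays. Arg1 was at least 2.88-fold higher at 12 h (limma adjusted p = 0.000565), and with values set to no less than the noise level its change was 1.53 (adjusted p = 0.00168). It lost its class without HBSS 3 h replicate 3, MACA 12 h replicate 2 or HBSS 12 h replicate 2, with a highest adjusted p of 0.0755 for the change as fitted, and without the 12 h replicates 1 and 2 (adjusted p = 0.0707). Of 26 type 2 genes 1 was higher at 3 h, and 9 were higher and 1 lower at 12 h, against 4.56% higher at 3 h and 9.78% higher and 9.53% lower at 12 h of all genes. Arg1 and Crlf2, the receptor of thymic stromal lymphopoietin, were late-only. Crlf2 changed by 0.59, kept its class in 4 of the 14 fits without 1 array, passed at neither time without the 12 h replicates 1 and 2, and turned its sign without scaling. Rnase2a, an eosinophil-associated ribonuclease, was at least 1.61-fold higher at 12 h (adjusted p = 0.000308), and was undecided with the control ratio as a term (adjusted p = 0.0721) and without the 12 h replicates 1 and 2 (adjusted p = 0.0529). Of 15 eosinophil, basophil and mast cell markers 0 passed at 3 h, and 1 was higher and 1 lower at 12 h, which is near the background. In each of the 4 groups 10 to 12 of these markers were within the noise on every array, so the list could show little of a response.

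Mcm5, a subunit of the replicative helicase, had 6.77, 7.15, 6.93 and 6.92 in MACA lungs at 3 h, against 6.87, 7.06 and 7.04 in HBSS lungs. The 12 h levels were 8.07, 8.55 and 8.21 in MACA lungs, against 6.70, 6.86, 7.26 and 7.12 in HBSS lungs. The groups overlapped at 3 h and lay apart at 12 h. The differences were -0.05 (limma adjusted p = 0.929) and 1.29 ± 0.17 (SE, adjusted p = 0.000176), and the change was 1.34 ± 0.24 (adjusted p = 0.0121). Mcm5 stayed late-only in all 14 fits without 1 array, with the control ratio as a term (1.54, adjusted p = 0.0348) and without the 12 h replicates 1 and 2 (1.13, adjusted p = 0.0264). Of 28 DNA replication genes, 1 was higher at 3 h and 6 were higher at 12 h, against 4.56% and 9.78% of all genes. The 4 late-only members, Mcm2, Mcm5, Mcm6 and Mcm7, encode subunits of the same helicase. The change was 1.33 for Mcm6 (limma adjusted p = 0.0206), 0.87 for Mcm2 (adjusted p = 0.0394) and 0.70 for Mcm7 (adjusted p = 0.0242). Mcm6 kept its class in 12 and Mcm2 in 3 of the 14 fits without 1 array. With the control ratio as a term (adjusted p = 0.123 and 0.0916) and without the 12 h replicates 1 and 2 (adjusted p = 0.0972 and 0.133), Mcm6 was undecided and Mcm2 passed at neither time.

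Oas1a, an antiviral enzyme that makes 2-5A oligomers, had 8.05, 8.54, 8.17 and 8.18 in MACA lungs at 3 h, against 7.96, 7.87 and 7.78 in HBSS lungs. At the later time the levels were 9.13, 9.33 and 8.95 in MACA lungs, against 7.92, 7.78, 7.77 and 7.68 in HBSS lungs. The groups did not overlap at either time, but the 3 h difference of 0.37 did not pass (limma adjusted p = 0.183). At 12 h the difference was 1.35 ± 0.15 (adjusted p = 8.27e-05) and the change 0.99 ± 0.22 (adjusted p = 0.0247). Without 1 array the class was lost for MACA 3 h replicate 4, HBSS 3 h replicates 1 and 3, MACA 12 h replicate 2 and HBSS 12 h replicate 2, with a highest adjusted p of 0.0761, and also without the 12 h replicates 1 and 2 (adjusted p = 0.0774). Its promoter is shown because a pair of overlapping interferon-stimulated response elements (GAAANNGAAA, capitals) starts 20 and 14 bases before the gene's start. It lies at chr5:120907526-120907775 on the minus strand, from RefSeq in GRCm38.p6, 5′ to 3′.
Oas1a: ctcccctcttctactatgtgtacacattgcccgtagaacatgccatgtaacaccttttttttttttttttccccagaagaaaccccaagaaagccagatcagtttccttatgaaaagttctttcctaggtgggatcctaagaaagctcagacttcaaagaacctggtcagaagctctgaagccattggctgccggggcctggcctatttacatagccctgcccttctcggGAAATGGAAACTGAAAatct
Of 22 antiviral interferon-stimulated genes, 7 were higher at 3 h and 17 at 12 h, against 4.56% and 9.78% of all genes. Their median was 0.41 and 0.81, and Ifit3, Oas1a and Bst2 were late-only. This element stood in 5.11% of the windows of late-only higher genes (9 of 176), against 3.14% of all tested windows. The 7 antiviral genes that were higher at 3 h were all sustained. Of 9 interferon-induced GTPases, 8 were higher at 3 h, 8 at 12 h and 8 sustained, and a difference in timing between the lists was not tested. Among them Iigp1 had differences of 1.00 and 1.19, and its 12 h difference did not pass with the control ratio as a term (limma adjusted p = 0.082).

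Psme1, a subunit of the proteasome activator used in antigen processing, had differences of -0.06 (limma adjusted p = 0.748) and 0.69 (adjusted p = 0.000147) and a change of 0.75 (adjusted p = 0.00858). It held in all 14 fits without 1 array and without the 12 h replicates 1 and 2 (0.69, adjusted p = 0.0332). Tapbp, which loads peptides onto class I molecules, changed by 0.86, and H2-DMa, which loads class II molecules, by 0.82. Of 11 immunoproteasome and class I genes 1 was higher at 3 h and 7 at 12 h, and of 9 class II genes 0 and 3. Over all genes 4.56% were higher at 3 h and 9.78% at 12 h, so the 3 h counts are near the background. Psme1, Oas1a, Bst2 and H2-DMa passed at 12 h but were undecided with the control ratio as a term. Tapbp passed at neither time there (12 h difference 0.36, adjusted p = 0.102, and change 0.29, adjusted p = 0.492) and kept its class in 6 of the 14 fits without 1 array. Without the 12 h replicates 1 and 2 Bst2 (adjusted p = 0.0801), Tapbp (adjusted p = 0.091) and H2-DMa (adjusted p = 0.0512) were undecided.

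Tgfbi, a matrix protein secreted by macrophages and fibroblasts, had 10.08, 10.04, 9.59 and 9.91 in MACA lungs at 3 h, against 10.10, 9.99 and 9.88 in HBSS lungs. After 12 h it had 10.91, 11.31 and 10.76 in MACA lungs, against 9.53, 9.45, 9.33 and 9.50 in HBSS lungs. The differences were -0.09 (limma adjusted p = 0.856) and 1.54 ± 0.19 (SE, adjusted p = 0.000114), and the change of 1.63 ± 0.27 (adjusted p = 0.00858) held in all 14 fits without 1 array and without the 12 h replicates 1 and 2 (1.67, adjusted p = 0.00637). Fcgr2b, the inhibitory IgG receptor, had differences of 0.28 and 1.93 and a change of 1.65 (limma adjusted p = 0.0121), which also held in all 14. Tnc, the matrix protein tenascin-C, changed by 1.62 (adjusted p = 0.0256) and kept its class in 8 of the 14 fits, with a highest adjusted p of 0.0755 without MACA 12 h replicate 2. Fcgr1 and Itgax, markers of myeloid cells, changed by 1.05 and 0.84. They kept their class in 3 and 4 of the 14 fits without 1 array. Fcgr1 was the 1 gene of 16 macrophage markers whose response changed. Of 15 dendritic cell markers, 5 were higher at 3 h and 4 at 12 h, against 4.56% and 9.78% of all genes. The change was above 0 for Itgax and below 0 for Cd83 and Cd40, and the median change of that list was -0.25. With the control ratio as a term Tgfbi, Tnc, Fcgr1 (0.39, adjusted p = 0.533) and Itgax (0.65, adjusted p = 0.251) were undecided and Fcgr2b was sustained. Without the 12 h replicates 1 and 2 Tnc (adjusted p = 0.0553), Fcgr1 (adjusted p = 0.0676) and Itgax (adjusted p = 0.132) were undecided.

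Pigr, which carries IgA and IgM across the epithelium, had 8.54, 9.07, 7.85 and 7.88 in MACA lungs at 3 h, against 8.73, 9.17 and 9.37 in HBSS lungs. At 12 h it had 10.54, 11.20 and 11.26 in MACA lungs, against 8.08, 7.96, 9.58 and 9.56 in HBSS lungs. The HBSS lungs at 12 h fell into the same pairs of replicates as for Prss22, here with replicates 1 and 2 low, and MACA lungs were above all of them. The differences were -0.76 (limma adjusted p = 0.357) and 2.21 ± 0.45 (SE, adjusted p = 0.00335), and the change was 2.96 ± 0.63 (adjusted p = 0.0226), or 2.19 without the 12 h replicates 1 and 2 (adjusted p = 0.0446). It was lost without HBSS 3 h replicate 3 or MACA 12 h replicate 2, with a highest adjusted p of 0.0629, and with the control ratio as a term.

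The late-only genes with lower levels in MACA included detoxifying enzymes that rose in vehicle lungs. Gsta2, a glutathione transferase, had 8.46, 8.30, 8.40 and 8.45 in MACA lungs at 3 h, 9.18, 9.04 and 8.88 in BSA lungs, and 7.52, 7.09 and 7.18 in HBSS lungs. By 12 h the levels were 6.11, 6.29 and 6.52 in MACA lungs, 9.50, 9.89, 7.50 and 7.86 in BSA lungs, and 9.88, 10.42, 8.48 and 9.41 in HBSS lungs. MACA lungs were above HBSS lungs on every array at 3 h and below them on every array at 12 h. The differences were 1.14 (limma adjusted p = 0.183) and -3.24 ± 0.48 (SE, adjusted p = 0.000437), and the change of -4.38 ± 0.68 (adjusted p = 0.00648) passed in all 14 fits without 1 array and with the control ratio as a term (-5.86, adjusted p = 0.00607). With the term the 3 h difference passed too (1.63, adjusted p = 0.045), so that Gsta2 counted as reversed and not as late-only. Between the times Gsta2 fell by 2.10 in MACA lungs (adjusted p = 0.0119) and rose by 2.28 in HBSS lungs (adjusted p = 0.0111). Without the 12 h replicates 1 and 2 the change was -3.78 (adjusted p = 0.000161), and Gsta2 was again a reversed gene.

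Nqo1, a quinone reductase and target of Nrf2, had 6.64, 6.58, 6.65 and 7.01 in MACA lungs at 3 h, against 6.35, 6.14 and 5.98 in HBSS lungs. The 12 h levels were 6.45, 6.15 and 5.53 in MACA lungs, against 8.05, 8.09, 7.04 and 7.33 in HBSS lungs. The order of the groups turned as for Gsta2. The differences were 0.56 (limma adjusted p = 0.24) and -1.58 ± 0.27 (SE, adjusted p = 0.00104), with a change of -2.15 ± 0.38 (adjusted p = 0.0121) that held in all 14 fits without 1 array, with the control ratio as a term (-2.46, adjusted p = 0.036) and without the 12 h replicates 1 and 2 (-1.71, adjusted p = 0.0254). Its rise in HBSS lungs was 1.47 (adjusted p = 0.00483). Of 15 metallothionein and Nrf2 genes, 7 were higher and 0 lower at 3 h, and 5 higher and 2 lower at 12 h. Over all genes the shares were 4.56% and 2.71% at 3 h, and 9.78% and 9.53% at 12 h, so the lower counts are near the background. Srxn1 was early-only, Nqo1 late-only, and Mt1, Mt2, Hmox1 and Sod2 were sustained and higher, so members of this list stood in all 3 classes.

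Tcap, a protein of the sarcomere, had 8.61, 9.24, 9.42 and 9.54 in MACA lungs at 3 h, against 8.80, 9.50 and 9.17 in HBSS lungs. At the later time the levels were 6.50, 5.99 and 6.33 in MACA lungs, against 8.08, 8.18, 7.79 and 8.44 in HBSS lungs. The differences were 0.04 (limma adjusted p = 0.964) and -1.85 ± 0.23 (SE, adjusted p = 0.000115), with a change of -1.89 ± 0.32 (adjusted p = 0.0105) that held in all 14 fits without 1 array, and not with the control ratio as a term (-1.12, adjusted p = 0.11). Of 18 cardiac and skeletal muscle markers 0 passed at 3 h, against 7.27% of all genes, and 6 were lower at 12 h, against 9.53%. Their median was 0.05 and -0.84. Their summed intensity was 8496 to 15802 in MACA lungs at 3 h against 8612 to 14319 in HBSS lungs, and 6456 to 8601 in MACA lungs at 12 h against 11586 to 18810 in HBSS lungs. The amount of such tissue in each sample was not tested. Acaa1b, a peroxisomal thiolase of fat breakdown, was at least 3.85-fold lower in MACA at 12 h (limma adjusted p = 0.000147), and was undecided with the control ratio as a term (adjusted p = 0.115) and without the 12 h replicates 1 and 2 (adjusted p = 0.0614).

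Among the 17 reversed genes, 12 were higher in MACA at 3 h and lower at 12 h. Lratd1, of unsettled function, had 7.82, 7.98, 7.88 and 8.19 in MACA lungs at 3 h, against 6.50, 6.96 and 6.56 in HBSS lungs. After 12 h it had 5.97, 6.63 and 6.71 in MACA lungs, against 7.54, 8.04, 7.26 and 7.30 in HBSS lungs. The differences of 1.29 ± 0.25 (SE, limma adjusted p = 0.00623) and -1.10 (adjusted p = 0.00733) gave a change of -2.39 ± 0.36 (adjusted p = 0.0059), which held in all 14 fits without 1 array and with the control ratio as a term (-2.81, adjusted p = 0.0185). Fgfbp1, a carrier that releases fibroblast growth factors from the matrix, had differences of 0.87 and -0.48 and a change of -1.35 (adjusted p = 0.00454). It counted as early-only without MACA 12 h replicate 2, HBSS 12 h replicate 1 or HBSS 12 h replicate 2, without the 12 h replicates 1 and 2 of HBSS and BSA, or with the control ratio as a term. BSA in place of HBSS left 0 of the 17 reversed genes past the threshold for the change.

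The change of the response was set against the change within each arm. From 3 h to 12 h, 1261 genes changed in MACA lungs (10.2%) and 917 in HBSS lungs (7.4%). Of the 79 early-only genes 54 passed for the MACA arm and 27 for the HBSS arm, and of the 271 late-only genes 155 and 92. These classes were sorted by the difference between the arms' moves. Shares above those of all genes thus follow in part from the sorting, and the counts only describe the classes. HBSS moved further than MACA between the times in 26 early-only genes (32.9%) and 109 late-only genes (40.2%), against 49.2% of all genes. The median early-only higher gene moved by -0.80 in MACA and by 0.46 in HBSS lungs, and the median late-only lower gene by -0.45 in MACA and 0.40 in HBSS lungs. The change is the difference of these moves. HBSS arrays were all of the high control ratio at 3 h and all of the low one at 12 h, while the MACA 12 h arrays were all of the high one. The part of the ratio in the HBSS moves was not tested.

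**Figure D4:**
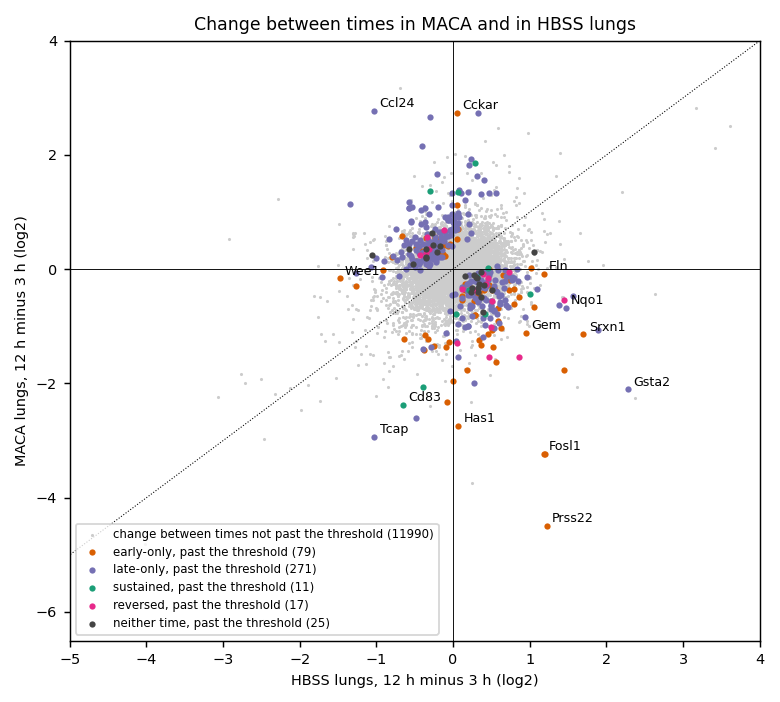
Each point is a gene, with its 12 h minus 3 h log2 change in HBSS lungs on the x axis and in MACA lungs on the y axis, and the dotted line marks equal change in both arms. Has1 lies near 0 on the HBSS axis, so its change is a fall in MACA lungs, while Wee1 and Eln lie near 0 on the MACA axis and moved in HBSS lungs.

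**Figure D5:**
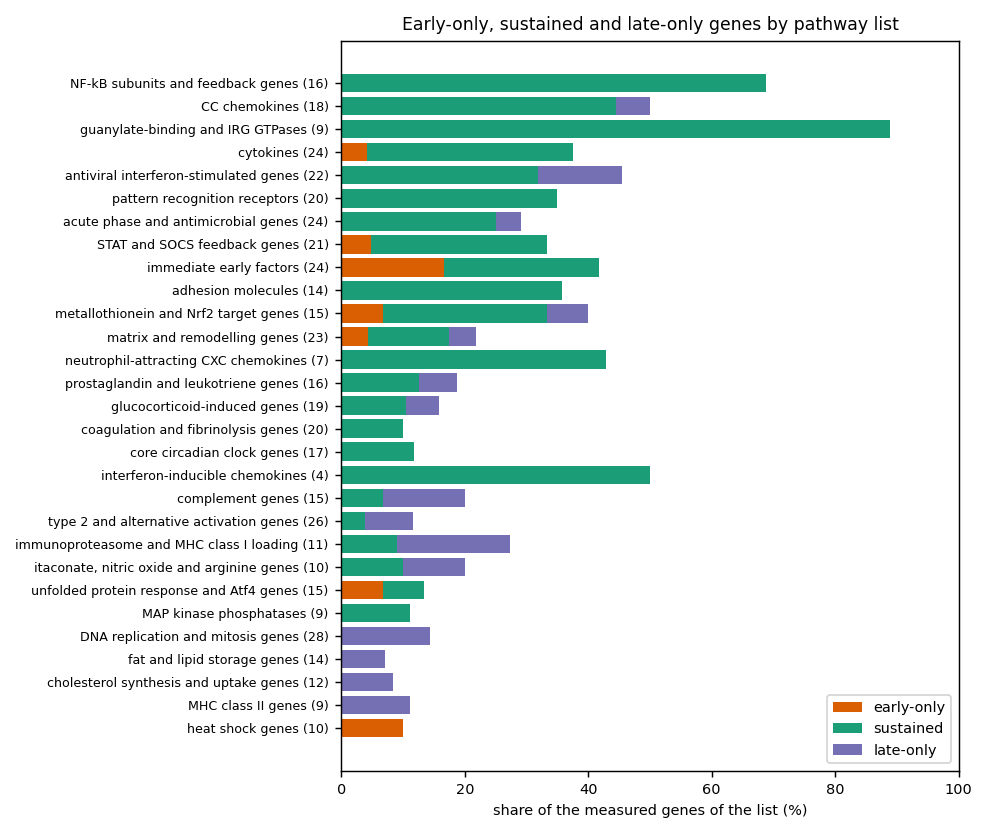
Share of the measured genes of each pathway list (x axis, %) that were early-only, sustained or late-only, with the number measured in brackets. Interferon-induced GTPases and NF-kB genes are mostly sustained, and immediate early factors hold the most early-only members, 4 of 24.

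The threshold for the change fell between Clec5a, a myeloid receptor just inside it (1.23, limma adjusted p = 0.0497), and Lpl, lipoprotein lipase, just outside it (0.57, adjusted p = 0.0501). Clec5a was at least 2.71-fold higher in MACA at 12 h, kept its class in 2 of the 14 fits that left out 1 array, and was undecided with the control ratio as a term and without the 12 h replicates 1 and 2. The genes that passed for the change in all 14 fits without 1 array and also with the control ratio as a term numbered 32 of 403, among them 7 early-only, 16 late-only and 8 reversed genes. They include Gem, Fosl1, Prss22, Rcan1, Mcm5, Nqo1, Gsta2, Lratd1 and Fgfbp1. None of these 9 passed for the change over BSA in place of HBSS, where it was -0.99 for Gem (adjusted p = 0.09), -0.99 for Fosl1 (adjusted p = 0.608) and -0.06 for Fgfbp1 (adjusted p = 0.922), and 4 of the 32 did. Prss22, Fosl1 and Gsta2 show the split between the 12 h replicates, and their fitted change over HBSS was larger in size with the term (for Gsta2 -5.86 against -4.38). For them the term cannot separate the control ratio from the split.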

How the data were processed

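Total RNA of the left lung was labelled with biotin and hybridised to 1 array per sample, per the labels' protocols. Each deposited column holds linear intensities of 22690 probe sets, and 9.38% to 11.2% of an array's values are below 0. The authors' way of summarising and scaling these intensities is not stated in the sources used here. Array medians differed by up to 3.09 times between the 14 MACA and HBSS arrays, so the arrays had not been brought to one level. After 64 control probe sets were left out, intensities were quantile normalised between arrays, negative values were raised to 0, and levels were expressed as log2(value + 16), so folds of dim genes are understated. The noise level (intensity 40.9) is the 95th percentile of the negative values' absolute size. A gene within the noise on every array of a group is given as at least N-fold, with the dim arrays counted at the noise level or at their own value, whichever is higher.

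limma (3.58.1, R 4.3.3) fitted 6 group means to 21 arrays with 15 residual degrees of freedom, and p-values were adjusted over 22626 probe sets within a comparison. The brightest probe set of each of 12393 genes was used, and 4956 genes had more than 1. Of the probe sets tested, 20380 had 1 gene symbol, 691 several and 1555 none, and 29 kept an older symbol. The fit was tested on simulated data. Figures used python 3.11.15 and matplotlib 3.10.9.

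Named are the 12 highest and 6 lowest early-only and late-only genes, 10 higher and 6 lower sustained genes, up to 6 reversed genes, up to 3 changed members and 1 other member of each list, and the genes beside the threshold, all above noise in at least 1 group. Genes outside this rule (Rcan1, Dok2, Mcm7 and members named only by class) were chosen after their values were seen. Members and lists were chosen with earlier results of these data known. Replicate numbers did not pair the samples. Same-numbered pairs had a mean correlation of deviations of 0.06 (19 pairs), against -0.02 for other pairs (54).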

Additional observations from a re-analysis of the deposited data

Results flagged for a closer look

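The response changed between 3 h and 12 h past the threshold in 403 genes by the test of the difference itself (limma, adjusted p under 0.05). Among the reversed genes the change was -2.39 for Lratd1, -1.98 for Spire2, -1.50 for Cidea, -1.35 for Fgfbp1, -1.07 for Fam83h and 0.89 for Hs1bp3. Spire2 and Cidea were within the noise in HBSS lungs at 3 h and in MACA lungs at 12 h, so their sizes are as fitted and not bounds. With values set to no less than the noise level the change was -1.18 for Spire2 (limma adjusted p = 0.018) and -0.77 for Cidea (adjusted p = 0.0593).

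In 13 of 246 groups of values of named genes, 1 array stood far from the other 3 by Dixon's 95% limit, which chance reaches in about 1 group of 20. In MACA lungs at 3 h these were Nupr1 at 13.06 and Nqo1 at 7.01, both the highest and both in replicate 4, and Fcgr1 at 6.24, the lowest, in the same replicate. Pcna at 11.55 and Ifi202b at 7.34 were highest in replicate 2, and Nfkbia at 12.99 was lowest in replicate 1. In HBSS lungs at 12 h, Hsd11b2 at 7.45, Mcm2 at 8.68, Iigp1 at 10.04 and Acod1 at 5.12 were highest in replicate 3. Actc1 at 11.73 and Ttc16 at 7.23 were highest in replicate 4, and Alas2 at 9.26 was lowest there.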

How the results depend on the processing

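The counts of 403 changed, 79 early-only, 271 late-only and 372 sustained genes stayed within 1.5 times under the scaling to one median (except for its split), a pseudocount of 64, the filter on low values, the floor at the noise level, the 14 arrays fitted alone, adjustment over 1 probe set a gene, trend and robust variances and, added, BSA 12 h replicate 1 left out. The genes themselves were not all the same. With the 14 arrays fitted alone, 300 of the 403, 51 of the 79, 204 of the 271 and 315 of the 372 were shared. In that fit Gem, Cldn4 and Nupr1 counted as reversed. Egr1, Chac1, Cish, Cd40, Usp2, Mcm2, Crlf2, H2-DMa and Itgax were among the genes left undecided. Settings that moved a count further, in that order of classes, were the control ratio as a term (215, 46, 126 and 228), a 2-fold minimum (136, 31, 68 and 100) and, added after seeing the data, BSA in place of HBSS (63, 18, 39 and 185) and the 3 h arrays of the high set only (43, 8, 30 and 165). Leaving out the 12 h replicates 1 and 2 of HBSS and BSA, also added, gave 118, 36 and 69, with 393 sustained, and the replicate block gave 224, 45 and 154, with 356 sustained, though the numbers do not pair the samples. Without scaling 2127 genes changed, 1868 were late-only and 45 sustained. Among the named genes past the threshold as reported, the signs then turned for C1ra (-0.13), Crlf2 (-0.19) and Zbtb14 (-0.25). Of the same genes, BSA in place of HBSS turned Gjb2 (0.16). Leaving out 1 array gave 125 to 493 changed, 23 to 113 early-only, 78 to 331 late-only and 187 to 420 sustained genes. The early-only and late-only counts moved over 1.5 times without the same 5 arrays as the changed count, and the sustained count without MACA 3 h replicate 4 (225) or HBSS 3 h replicate 2 (237) or 3 (187). Over the 123 named genes and all settings, the change stayed on its side of the threshold in 2822 fits. Direction was compared only where the change passed as reported or in the other fit. Among those, it kept its direction but no longer passed in 586, newly passed in 32 and turned in 4. The causes were not tested, apart from the fewer arrays or smaller gene sets that some settings hold. Genes within the noise on the arrays of a group have no measured fold.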
